A study of Mus musculus with 2 samples.

Results

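The genes described here are 32 genes of brain endothelial cells and of the blood-brain barrier, taken by symbol from a list that was drawn up with earlier results of these data known. All 32 were found among the 55536 gene entries quantified in the left cerebral cortex of the mouse. Total RNA was sequenced from 2 adult males of B6CASTF1/J, an F1 hybrid between the B6 and Cast strains, aged 8 to 10 months, with 300 ng of RNA per library, ribosomal RNA reduced, a strand-keeping kit and ERCC spike-ins. In all, 26925514 expected counts were assigned for replicate 1 and 30143684 for replicate 2. The labels put both animals in 1 group without treatment, so no condition was compared and no p-value is given. The library of animal 2 is replicate 1 and that of animal 4 is replicate 2. Both carry the same donor label. The animals are taken as distinct from their animal numbers and from their labels as biological replicates 1 and 2. The spread between them may be partly technical. Levels are in TPM, a share of all transcripts after division by length, and ± marks the SD over the 2 animals (n = 2). Coordinates are on mm10.

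Endothelial cells line every blood vessel. In the brain they are sealed to each other by tight junctions, carry few transport vesicles, and move glucose, amino acids, lactate and lipids through dedicated transporters while efflux pumps return many drugs to the blood. Wnt ligands from neural cells and Norrin act through Fzd4 and its partners on the endothelium to keep this barrier state, and the VEGF and angiopoietin receptors govern growth and quiescence of the vessel wall. Endothelial cells are a small part of the cortex, so each value here is an average over all cells of the tissue. Fewer endothelial cells and less RNA per endothelial cell cannot be told apart in such bulk RNA.

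All 32 genes were at or above 1 TPM in both animals, a level that 59.0% of protein-coding genes and 27.1% of all gene entries reached. Their median was 9.54 ± 0.110 TPM, and the median of the 12994 protein-coding genes that reached 1 TPM was 16.0 TPM in replicate 1 and 16.4 TPM in replicate 2. Together the 32 genes held 0.157% of protein-coding TPM in replicate 1 and 0.154% in replicate 2. The sum was uneven. Bsg alone made up 34.3% and 33.9% of it in replicates 1 and 2. The 10 genes that other brain cells are also known to express (Slc2a1, Slc7a5, Slc3a2, Slc16a1, Bsg, Tjp1, Ocln, Itm2a, Eng and Podxl) made up 69.0% and 67.7%. The other 22 genes had a median of 8.19 ± 0.389 TPM.

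**Figure D1:**
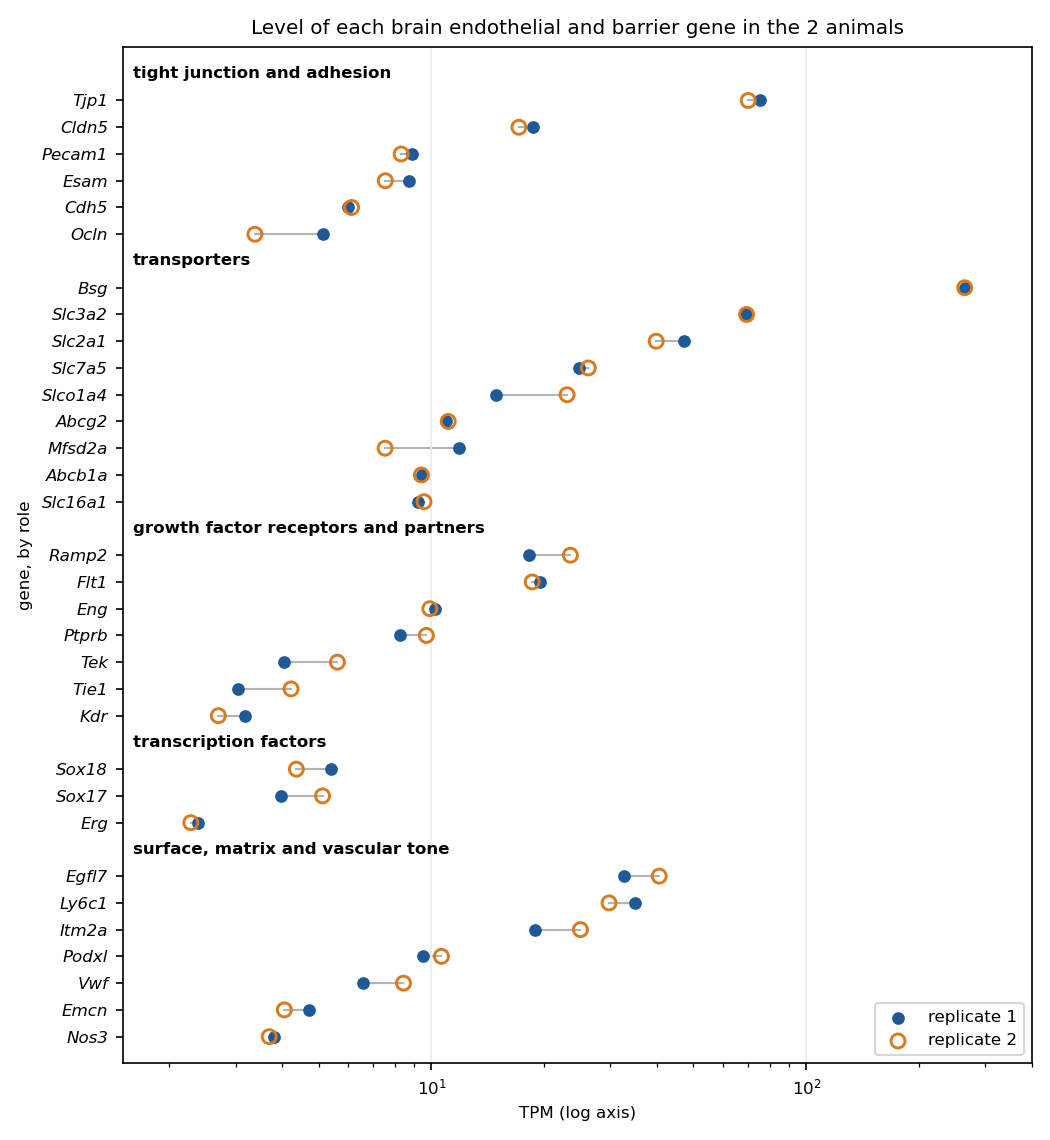
TPM (log axis) of the 32 genes in replicate 1 (filled points) and replicate 2 (open circles), grouped by role and ordered by mean within each group. Bsg stands at 265 TPM in both animals and Erg, the lowest, at 2.39 and 2.28 TPM, and most pairs of points lie close together.

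The order of the levels ran over a 113-fold range, from Bsg to Erg. Bsg, Tjp1 and Slc3a2 took the first 3 places, and in each case both animals lay above both values of the next gene. Tjp1 and Slc3a2 lay close, and by the second deposited quantification, which worked from the reads themselves, Slc3a2 was the higher in both animals, with 98.5 and 113 TPM beside 69.1 and 83.2 TPM for Tjp1, so their order was not settled. Further down, the genes could seldom be ranked, since in 22 of the 31 neighbouring pairs the values of the animals overlapped. Only 7 genes were above 20 TPM in both animals, and 5 were below 5 TPM in both.

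Among the genes of tight junctions and adhesion, Tjp1 was the highest. It encodes ZO-1, the scaffold that ties junction proteins to actin, with 75.2 TPM for replicate 1 and 70.0 TPM for replicate 2. Cldn5, the claudin that seals brain capillaries against small molecules, followed with 18.7 TPM for replicate 1 and 17.1 TPM for replicate 2. Ocln, the other strand protein of the list, had 5.13 TPM for replicate 1 and 3.38 TPM for replicate 2. The level of Tjp1 was thus 14.6 and 20.7 times that of Ocln, a ratio that moved with Ocln more than with Tjp1. Pecam1, an adhesion receptor of endothelium, platelets and leukocytes, had 8.87 and 8.30 TPM in replicates 1 and 2. Esam, an endothelial adhesion molecule at tight junctions, had 8.69 and 7.53 TPM. Cdh5, VE-cadherin of the adherens junction, had 6.0 and 6.12 TPM, so the 3 adhesion genes sat within a narrow band in both animals.

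The transporters spanned the widest range. Bsg, basigin, the chaperone that brings monocarboxylate transporters to the membrane, had 265 TPM in both replicates, from 5418 and 5866 expected counts. Slc16a1, the lactate and ketone transporter MCT1 that Bsg accompanies, had 9.20 TPM in replicate 1 and 9.55 TPM in replicate 2, so Bsg stood 28.8 and 27.7 times higher. The amino acid exchanger LAT1 is a pair of Slc3a2, the heavy chain, and Slc7a5, the light chain. Slc3a2 was level at 69.2 and 69.3 TPM, and Slc7a5 had 24.7 and 26.2 TPM, giving a ratio of 2.72 ± 0.113. By the second quantification this ratio was 4.24 and 3.26, so only its direction held.

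Slc2a1, the glucose transporter GLUT1 of the barrier, had 47.2 TPM for replicate 1 and 39.8 TPM for replicate 2. Slc2a3, the neuronal glucose transporter, was at 53.6 and 51.6 TPM, a little above Slc2a1 in both animals. By the second quantification the ratio of Slc2a1 to Slc2a3 was 1.01 and 0.908, so the order of these 2 genes was not settled. The efflux pumps Abcg2 and Abcb1a were almost the same in both animals. Abcg2, the breast cancer resistance protein, had 10.9 and 11.1 TPM, and Abcb1a, P-glycoprotein, had 9.41 and 9.40 TPM. Abcb1b, the close paralog of Abcb1a, had 1.68 and 1.05 TPM.

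Slco1a4, an organic anion transporter of the barrier, was lower in replicate 1 at 14.8 TPM, against 23.0 TPM in replicate 2. Mfsd2a, which carries lysolipids with docosahexaenoic acid and restrains vesicle transport, went the other way with 11.8 TPM in replicate 1 and 7.52 TPM in replicate 2. These were the transporters with the largest gaps between the animals. Of the relatives of Slco1a4, Slco1a1 had no counts and Slco1a5 and Slco1a6 had at most 2.04 expected counts in either animal, so few reads were at stake between them.

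Of the receptors for vascular growth factors, Flt1 was well above Kdr. Flt1, VEGF receptor 1, which binds VEGF tightly and signals weakly, had 19.5 TPM in replicate 1 and 18.6 TPM in replicate 2. Kdr, VEGF receptor 2, the main signalling receptor, had 3.19 and 2.70 TPM. The ratio of Flt1 to Kdr was 6.10 and 6.87, and 5.61 and 6.24 by the second quantification. Tek and Tie1, the angiopoietin receptor and its co-receptor, were both lower in replicate 1. Tek had 4.03 TPM there, against 5.61 TPM in replicate 2, and Tie1 had 3.05 TPM, against 4.22 TPM. Within an animal their ratio was steady at 1.32 and 1.33. Ptprb, the phosphatase VE-PTP that restrains Tek, had 8.24 and 9.69 TPM and so exceeded Tek in both animals.

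Eng, endoglin, a co-receptor for BMP ligands, had 10.2 and 9.90 TPM in replicates 1 and 2. Ramp2, which pairs with Calcrl to form the adrenomedullin receptor, had 18.2 and 23.5 TPM. Ramp2 lies on the same strand as Vps25, and 5840 bases of the 2 genes overlap. By posterior SD it was the 1 member whose count was poorly fixed. It had 214 and 266 expected counts, with a posterior SD of 11.1 and 15.3 counts. The second quantification gave Ramp2 409.3 and 398.5 counts, or 27.9 and 34.8 TPM. That SD therefore does not cover the difference between the quantifications. The other 31 had a posterior SD of at most 1% of the count in both animals.

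The transcription factors were the lowest group. Sox18 had 5.38 TPM in replicate 1 and 4.36 TPM in replicate 2, and Sox17 had 3.97 and 5.12 TPM. These related SoxF factors direct vessel growth and arterial fate, and their order changed between the animals, with Sox17 at 0.738 and 1.17 times the level of Sox18. This ratio was 1.01 and 1.18 by the second quantification, so the change of order was not seen there. Erg, the ETS factor that maintains endothelial junction genes, had 2.39 and 2.28 TPM from 90 and 111 expected counts, the fewest of any member in replicate 1.

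Of the genes for surface, matrix and vascular tone, Egfl7, a secreted endothelial matrix protein, had 32.6 TPM in replicate 1 and 40.5 TPM in replicate 2. Its introns host Mir126a, which was listed at 0 counts in both libraries. Ly6c1, a surface protein that is abundant on mouse brain endothelium, had 35.0 and 29.8 TPM. Itm2a, a membrane protein of brain endothelium and of other lineages, was lower in replicate 1 at 18.9 TPM, against 25.0 TPM in replicate 2. Podxl, the sialomucin podocalyxin of the luminal surface, had 9.52 and 10.6 TPM. Vwf, the clotting factor stored in endothelial granules, had 6.57 and 8.42 TPM, Emcn, the sialomucin endomucin, had 4.70 and 4.05 TPM, and Nos3, the endothelial nitric oxide synthase, had 3.79 and 3.69 TPM.

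By the first quantification, Flt1 and Slc2a1 were each divided mainly between 2 annotated forms in nearly the same way in both animals. Flt1 lies at chr5:147561604-147726011 on the minus strand. Its full-length form Flt1-202 has 30 exons and 1333 codons. Flt1-203 shares 13 exons, then reads on into the intron after exon 13, and ends its coding sequence after 688 codons, without the 17 exons that follow in Flt1-202. Those exons encode the membrane span and the kinase. A secreted Flt1 made by reading into this intron is known as soluble Flt1, a decoy for VEGF and placental growth factor. The lines show the end of the shared exon in lower case and, in capitals, the bases specific to each form, with the stop codon of Flt1-203 as its last 3 bases, read from the annotated transcripts.
Flt1-203: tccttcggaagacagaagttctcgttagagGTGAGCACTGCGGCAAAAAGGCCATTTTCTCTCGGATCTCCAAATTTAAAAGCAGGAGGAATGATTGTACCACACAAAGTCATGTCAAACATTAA
Flt1-202: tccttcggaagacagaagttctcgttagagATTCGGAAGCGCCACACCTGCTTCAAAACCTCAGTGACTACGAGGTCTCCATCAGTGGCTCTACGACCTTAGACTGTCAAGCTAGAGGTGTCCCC

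The Flt1-203 tail lies at chr5:147639130-147639224, next to the shared exon end. Flt1-203 held 31.4% of the gene's TPM in replicate 1 and 32.1% in replicate 2, from 665 and 707 expected counts. Flt1-202 held 53.9% and 55.5%, from 1253 and 1340 expected counts. By the second quantification Flt1-203 held 34.8% and 31.4%, so the share was nearly the same in both animals and both quantifications. The last exon of Flt1-203 takes in 4066 of the 4701 bases of that intron. Reads of unspliced Flt1 RNA in this total RNA and reads of Flt1-203 cannot be told apart in these tables.

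Slc2a1, at chr4:119108711-119137983 on the plus strand, had a similar division. Slc2a1-201 has 10 exons and 492 codons. Slc2a1-204 is annotated as a target of nonsense-mediated decay, the pathway that removes RNAs with an early stop. Slc2a1-204 held 33.1% of the gene's TPM in replicate 1 and 31.5% in replicate 2, from 590 and 513 expected counts. Slc2a1-201 held 65.9% and 65.7%. By the second quantification Slc2a1-204 held 32.7% and 27.9%, with Slc2a1-201 at 61.2% and 50.4%. The short Slc2a1-203, at 0 by the first quantification, held 0 and 19.7% there, so the division of Slc2a1 was less steady by the second. These shares come from the division of reads over annotated forms in the deposited tables, and reads across exon junctions were not counted here.

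**Figure D2:**
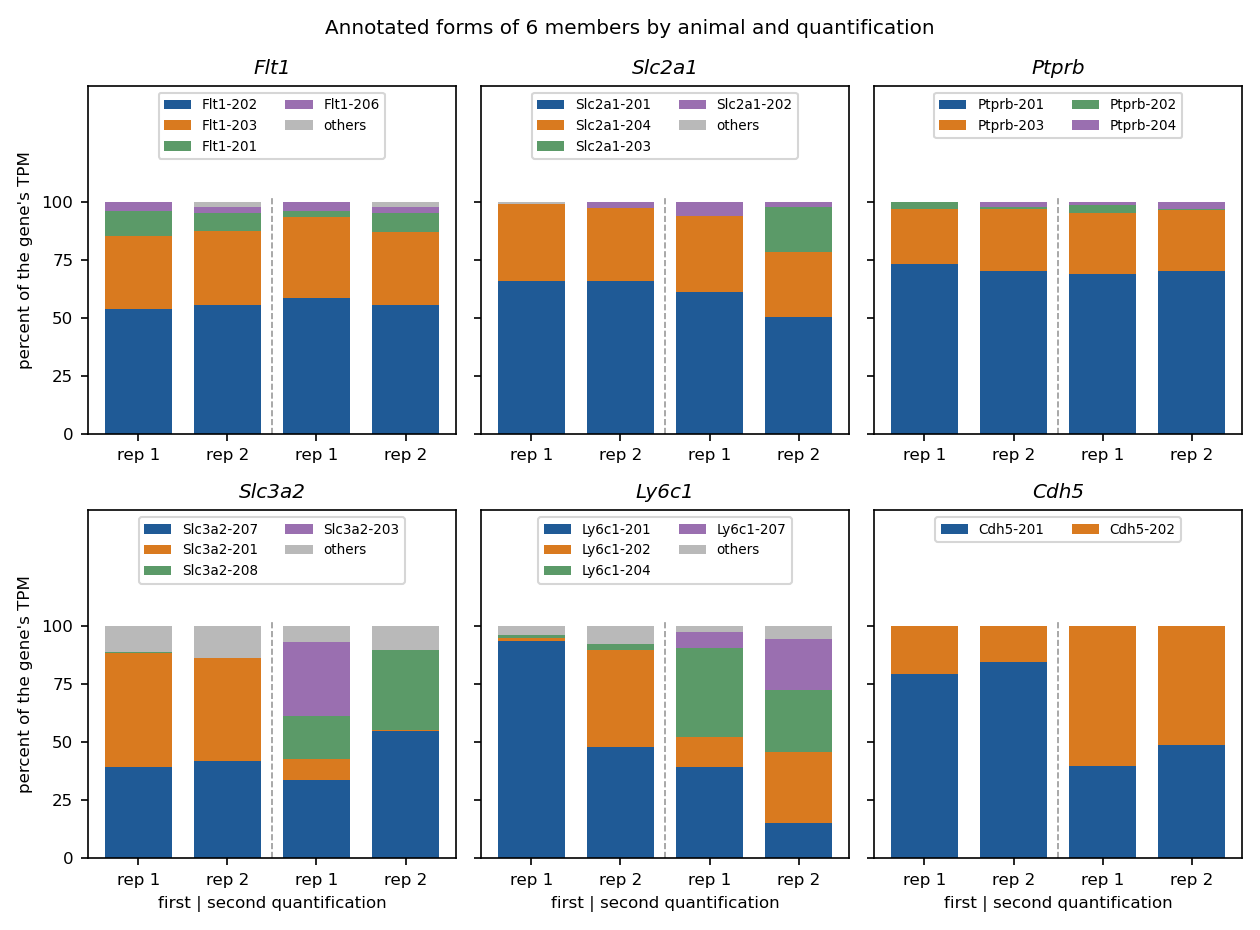
Percent of the gene's TPM given to each annotated form for 6 genes, as stacked bars for replicate 1 and replicate 2, by the first quantification left of the dashed line and the second right of it. The bars of Flt1 and Ptprb look alike on both sides, with Flt1-203 between 31.4% and 34.8%. Those of Slc2a1 differ in replicate 2, where Slc2a1-203 holds 19.7% by the second quantification, and those of Slc3a2, Ly6c1 and Cdh5 change with the quantification.

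The leading form was the same in both animals for 29 of the 32 genes, and in both animals and both quantifications for 20, of which 4 have a single annotated form. The exceptions between animals were Egfl7, Sox17 and Tjp1. In Tjp1, by the first quantification, no form held over 24.9% of the gene, and Tjp1-202 led in replicate 1 with 23.4% while Tjp1-201 led in replicate 2 with 24.9%. Egfl7 was led by Egfl7-216 at 19.9% in replicate 1 and by Egfl7-205 at 20.7% in replicate 2. Sox17 was led by Sox17-202 at 39.2% in replicate 1 and Sox17-204 at 43.8% in replicate 2. In the second quantification, the leader changed between the animals for Sox17 but not for the other two, since Tjp1-201 led in both with 26.2% and 30.1% and Egfl7-202 led in both with 25.2% and 26.9%.

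Ptprb had a steady division by both quantifications. Ptprb-201, of 1998 codons, held 73.2% in replicate 1 and 70.3% in replicate 2. Ptprb-203, with the longer coding sequence of 2285 codons, held 23.9% and 26.5%, and 26.4% in both animals by the second quantification. Slc3a2 was split between Slc3a2-201 at 49.2% and 44.04% and Slc3a2-207 at 39.3% and 42.2%, but the second quantification gave Slc3a2-201 only 9.42% and 0.365%. Slco1a4 was split between the full-length Slco1a4-203 at 58.6% and 47.1% and the short Slco1a4-202 at 37.2% and 45.7%. By the second quantification Slco1a4-202 held 17.0% and 33.1%, and Slco1a4-201, at 0 by the first, held 19.1% and 10.6%. Since TPM divides by length, the larger share of Slco1a4-202 in replicate 2 goes with a larger gap in TPM than in counts. By the first quantification Slco1a4 was 1.55-fold higher in replicate 2 in TPM and 1.31-fold higher in counts.

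In 9 further genes the leading form depended on the quantification: Abcg2, Bsg, Cdh5, Eng, Erg, Ly6c1, Ocln, Pecam1 and Slc3a2. Cdh5 shows how far a gene total can move with a short form. Cdh5-202, of 346 bases, received 5.29 of 333 expected counts in replicate 1 and 4.45 of 390 in replicate 2, and that made 20.4% and 15.4% of the gene's TPM. By the second quantification it held 60.1% and 50.9%, and Cdh5 stood at 9.68 and 12.4 TPM there. Bsg-205 held 86.0% and 79.0% by the first quantification, against 88.5% and 34.6% by the second. Pecam1-202 and Pecam1-203, of 716 and 697 codons, held 49.98% and 43.2%, and 24.6% and 24.4%, by the first quantification. In Eng, Eng-201 held 52.3% and 49.0% and Eng-205 21.9% and 30.3%. Erg-207 held 42.1% and 46.6%, and Erg-202 22.3% and 27.3%. Vwf-203, the full-length form, held 47.9% and 44.6%, and the noncoding Vwf-209 held 20.9% and 23.9% from 8.60 and 13.8 expected counts.

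**Figure D3:**
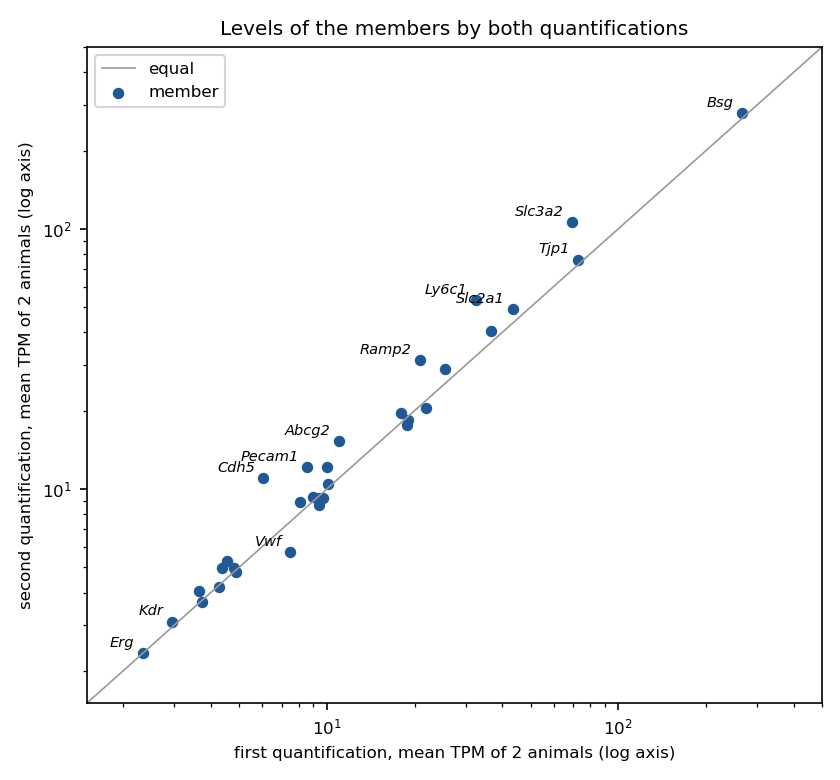
Mean TPM of each of the 32 genes over the 2 animals by the first quantification (x) and by the second (y), both on log axes, with the line of equal values. Most genes lie near the line. Cdh5 lies above it at 6.06 TPM by the first quantification and 11.0 TPM by the second. Ly6c1 (32.4 and 53.3 TPM), Slc3a2 (69.2 and 106 TPM) and Ramp2 (20.9 and 31.4 TPM) also lie above it, as do Pecam1 and Abcg2. Vwf lies below it at 7.50 TPM by the first and 5.72 TPM by the second.

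Ly6c1 has a near-identical neighbour, Ly6c2, a gene of monocytes and T cells. Their coding sequences have 393 bases each and differ at 9 of them, so they are 97.7% identical, and the longest run without a difference is 188 bases. Within the coding sequence the genes can be separated only at such positions, and the untranslated parts were not compared. The window of 60 bases with the most differences, coding bases 6 to 65, is shown with the 6 differing bases in capitals.
Ly6c1: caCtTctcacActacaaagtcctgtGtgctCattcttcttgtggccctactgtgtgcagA
Ly6c2: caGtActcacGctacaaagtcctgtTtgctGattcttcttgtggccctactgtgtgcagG

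Ly6c1 received 448 expected counts in replicate 1 and 404 in replicate 2, and Ly6c2 received 13.1 and 19.4. The posterior SD of the Ly6c1 count was 2.74 and 2.66 counts, so the division between the genes was firm by that measure. Within Ly6c1 the forms were not firm. Ly6c1-201 held 93.8% in replicate 1 and 47.8% in replicate 2, while Ly6c1-202, with a coding sequence of the same length, held 1.2% and 42.0%.

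The difference between the animals was measured for each gene as the log2 ratio of replicate 1 over replicate 2 after TMM scaling, with a 95% counting interval that covers the sampling of reads only. Reads without molecular identifiers are not independent molecules, and the interval leaves out all other error. Only genes that averaged 50 or more normalised counts were tested, and all 32 did. None was 2-fold apart, a size that 0.854% of the 14167 genes tested reached. Among the members 16 were higher in replicate 1 and 16 in replicate 2, with a median log2 ratio of 0.03, beside a median of 0.01 over all genes tested. The median absolute difference was 1.12-fold over the members and 1.08-fold over all genes tested. The counting interval left out equality for 16 of the 32 genes, 10 of them higher in replicate 1 and 6 higher in replicate 2. It did so for 33.5% of all genes tested, with 19.0% higher in replicate 1 and 14.5% in replicate 2.

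**Figure D4:**
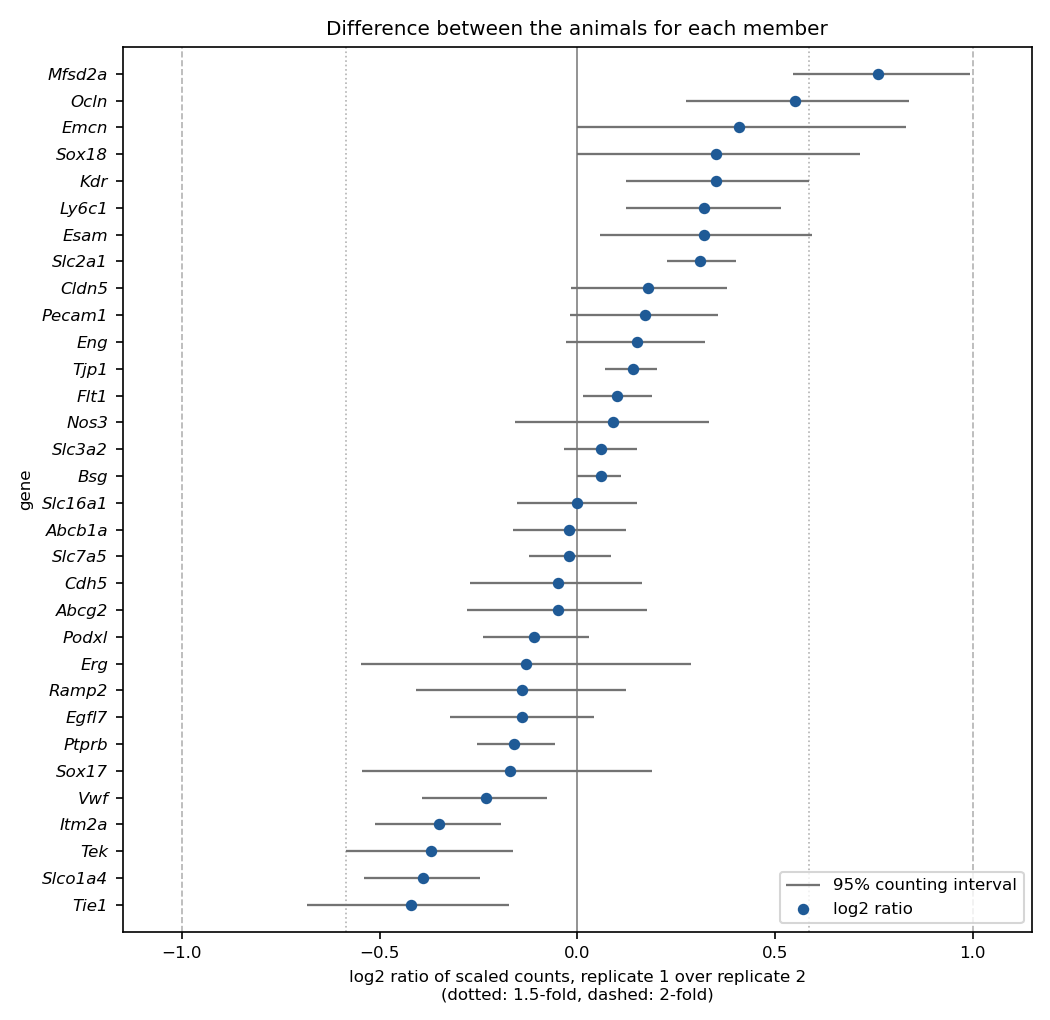
Log2 ratio of scaled counts, replicate 1 over replicate 2, for each of the 32 genes (points) with its 95% counting interval (lines). Dotted lines mark 1.5-fold and dashed lines 2-fold, and Mfsd2a at 0.76 is the one point past a dotted line.

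Mfsd2a was the largest difference and the 1 gene past 1.5-fold, a size chosen after the values were seen that 3.48% of all genes tested reached. It had 416 expected counts in replicate 1 and 276 in replicate 2, a 1.69-fold difference with an interval of 1.46 to 1.99. Of 4660 genes with counts within 2-fold of its own, 98.9% had a smaller absolute ratio. Ocln was 1.47-fold higher in replicate 1 (interval 1.21 to 1.79), from 239 and 183 expected counts. Slc2a1 was 1.24-fold higher in replicate 1 (1.17 to 1.32), from 2323 and 2106 expected counts. Kdr was 1.27-fold (1.09 to 1.5) and Ly6c1 1.25-fold (1.09 to 1.43) higher in replicate 1.

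In the other direction Tie1 was 1.34-fold higher in replicate 2 (1.13 to 1.61), from 211 expected counts in replicate 1 and 320 in replicate 2. Slco1a4 was 1.31-fold higher in replicate 2 (1.19 to 1.45), Tek 1.29-fold (1.12 to 1.5) and Itm2a 1.28-fold (1.14 to 1.43). Vwf was 1.18-fold higher in replicate 2 (1.05 to 1.31). Mfsd2a, Slc2a1, Slco1a4 and Ocln were the 4 members that lay beyond 95% of genes of like count. The members therefore did not move together, and genes of one role went both ways. For Cldn5 the interval held equality, at 1.13-fold (0.989 to 1.3), as it did for Cdh5 at 0.963-fold (0.829 to 1.12) and Pecam1 at 1.12-fold (0.988 to 1.28).

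By role, 5 of the 6 genes for tight junctions and adhesion were higher in replicate 1. Their median log2 ratio was 0.17, beside 0.01 over all genes tested. Of the 6, 3 had an interval above equality, as did 19.0% of all genes tested. Of the 9 transporters 4 were higher in replicate 1 and 5 in replicate 2. Of the 7 receptors and partners 3 were higher in replicate 1 and 4 in replicate 2, with a median of -0.14 that was 0.10 by the second quantification, where Ramp2 changed sign. None of the 3 transcription factors had an interval that left out equality.

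Marker genes of the choroid plexus and of red cells differed between the libraries. All 10 genes of a choroid plexus list were higher in replicate 1, with summed levels of 752 TPM in replicate 1 and 7.67 TPM in replicate 2. Ttr, the plexus transthyretin, had 13589 expected counts in replicate 1 and 50 in replicate 2, and Kcne2, chosen after its values were seen, had 65 and 0. All 7 with enough counts were past 2-fold, with log2 ratios of 8.20 for Ttr, 5.10 for Slc4a5, 4.96 for Mfrp, 4.81 for Sostdc1, 3.03 for Aqp1, 2.58 for Kl and 1.65 for Clic6. Of 5 erythroid genes 4 were higher in replicate 1, with summed levels of 577 TPM in replicate 1 and 414 TPM in replicate 2. The part of either in the ratios of the endothelial genes was not tested. The cells next to the endothelium differed less. The 14 mural genes summed to 90.0 TPM in replicate 1 and 94.47 TPM in replicate 2, and the 10 genes of astrocyte endfeet to 1585 and 1650 TPM, with median log2 ratios of -0.08 and 0.02. The 7 neuronal genes had a median of -0.04 and summed to 2784 and 2984 TPM. The lists for microglia and macrophages, meningeal fibroblasts and oligodendrocytes had medians of -0.01, -0.01 and 0.

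**Figure D5:**
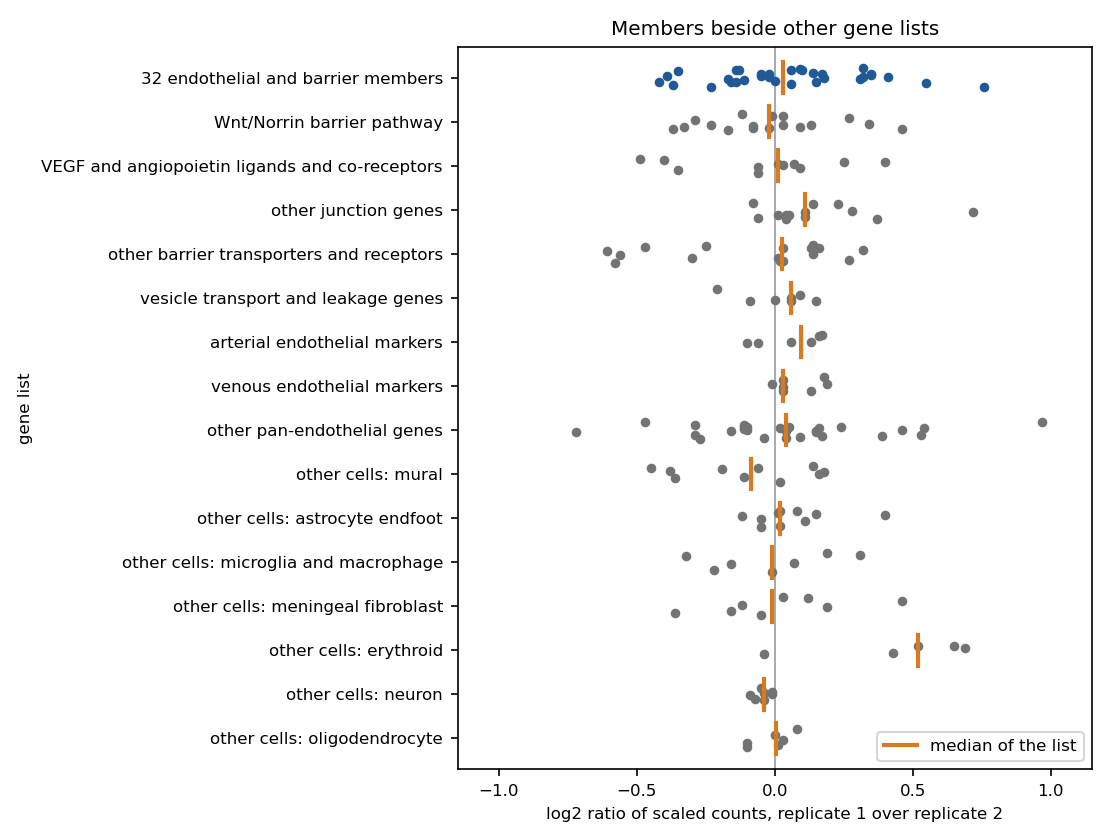
Log2 ratio of scaled counts, replicate 1 over replicate 2, of the 32 endothelial and barrier genes (top row, blue) and of genes in 15 other lists (grey), each averaging 50 or more normalised counts. Orange bars mark medians, which stay near 0 but for the erythroid list at 0.52, and the choroid plexus list, at 4.81, lies outside the axis and is not drawn.

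Other genes of the barrier and of its signals were taken from lists chosen with earlier results of these data known. All 17 genes of the Wnt and Norrin pathway were at or above 1 TPM in both animals, with a median log2 ratio of -0.02. Ctnnb1, beta-catenin, was the highest at 238 and 237 TPM, with Lrp6, a Wnt co-receptor, at 25.1 and 21.1 TPM and Axin2, a target of the pathway, at 14.6 and 17.0 TPM. Foxq1, a forkhead factor, was the lowest at 1.13 and 1.27 TPM. No gene of the list was 1.5-fold apart.

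Of 16 VEGF and angiopoietin ligands and co-receptors 12 reached 1 TPM in both animals. The ligands Vegfb and Vegfa had 45.4 and 45.4 TPM, and 37.8 and 37.4 TPM, above Flt1 and Kdr in both animals. Bmpr2, a BMP receptor, had 43.2 and 45.1 TPM, and Gdf2, the ligand BMP9, had 1 and 0 expected counts. Calcrl, the partner of Ramp2, was singled out after its values were seen, and had 2.36 TPM in replicate 1 and 4.08 TPM in replicate 2.

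Of 17 further junction genes 12 reached 1 TPM. Cldn11, the claudin of myelin, led with 56.2 and 57.9 TPM, then Afdn, afadin, with 49.1 and 48.1 TPM and Ctnnd1, p120 catenin, with 33.6 and 31.8 TPM. Tjp3 was the lowest at 0.14 and 0.04 TPM. Cldn3, once named as a barrier claudin and taken as the paralog of Cldn5, had 4 and 5 expected counts, and Cldn5 stood 83.9 ± 13.5 times above it. Of the 13 with enough counts, 11 were higher in replicate 1, with a median log2 ratio of 0.11 beside 0.01 over all genes tested. Lsr, the angulin of tricellular junctions, was the 1 past 1.5-fold, with 165 and 112 expected counts.

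Of 18 further barrier transporters and receptors 16 reached 1 TPM. Abcc5, an efflux pump, had 92.3 and 89.2 TPM, Slc6a6, the taurine transporter, had 67.5 and 83.4 TPM, and Lrp8, a reelin receptor, had 43.9 and 45.2 TPM. Ager, the receptor RAGE, was lowest with 4 and 9 expected counts. The 1 gene past 1.5-fold was Slc22a8, an organic anion transporter, with 233 expected counts in replicate 1 and 403 in replicate 2. Tfrc, the transferrin receptor, chosen after its values were seen, had 1284 and 2165 expected counts, a log2 ratio of -0.58. Of the 16 genes of this list with enough counts, 10 were higher in replicate 1 and 6 in replicate 2.

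Genes of vesicle transport were close between the animals, with no log2 ratio beyond -0.21 or 0.15 among the 7. Lrp1, a scavenger receptor of many cells, had 153 and 155 TPM, Cav2, caveolin-2, had 12.2 and 15.8 TPM, and Cavin1, a caveolar coat protein, had 9.75 and 9.52 TPM. Plvap, the diaphragm protein that is scarce in mature barrier vessels, was the lowest at 3.43 and 3.21 TPM. Cldn5 stood 5.45 and 5.33 times above Plvap in replicates 1 and 2.

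Among genes with enough counts, median log2 ratios were 0.10 over 6 genes of an arterial list and 0.03 over 7 genes of a venous list. The arterial genes with fewer counts, named after their values were seen, were Gkn3, Gja4, Bmx and Gja5. Their log2 ratios were -0.8, -0.59, -0.3 and 0.08, and each counting interval held equality. Efnb2, ephrin-B2, led the arterial list at 28.9 and 31.5 TPM, followed by Hey1, a Notch target, at 24.7 and 25.3 TPM and Mgp, matrix Gla protein, at 16.9 and 15.6 TPM, with Gja5, connexin 40, the lowest at 0.30 and 0.33 TPM. Tmsb10, a thymosin of many cells, led the venous list at 145 and 151 TPM, followed by Ackr1, a chemokine receptor of venules and red cells, at 27.9 and 28.3 TPM and Car4, carbonic anhydrase 4, at 20.6 and 22.6 TPM. Lcn2, lipocalin 2, was lowest with 1 and 4 expected counts.

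Of 34 further endothelial genes 27 reached 1 TPM in both animals. S1pr1, the sphingosine phosphate receptor, had 55.1 and 50.8 TPM, Cd34 had 27.4 and 26.8 TPM, and Slc9a3r2, a scaffold protein, had 19.95 and 21.9 TPM. The selectins of activated endothelium had few reads, with 3 and 0 expected counts for Sele and none for Selp, both chosen after their values were seen, where a count of 0 allows up to 3 counts. Past 1.5-fold were Klf4, a factor induced by shear stress, with 266 expected counts in replicate 1 and 152 in replicate 2, and Edn1, endothelin, with 37 and 70. Their median log2 ratio was 0.04.

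Sequence before the start of transcription was available from RefSeq on GRCm38.p6 for 20 of the 32 genes, in 28 windows. The 250 bases before the start were searched on both strands for 4 short motifs, AGGAAG for ETS factors such as Erg, ACAAAG for SOX factors, CTTTGA for the TCF and LEF factors of the Wnt pathway, and the TATAAA box. AGGAAG was in 14 of the 28 windows and in 29.5% of all 32851 windows, ACAAAG in 5 and 16.5%, CTTTGA in 4 and 13.8%, and TATAAA in 3 and 12.4%. Windows of 1 gene can overlap, and a match is a string of letters and not a bound site. The windows of the genes with the largest gap in each direction among transporters, and of the receptors Flt1 and Tie1, are shown. They are given on the strand of the gene with matches in capitals.
Mfsd2a, chr4:122961189-122961438, minus strand: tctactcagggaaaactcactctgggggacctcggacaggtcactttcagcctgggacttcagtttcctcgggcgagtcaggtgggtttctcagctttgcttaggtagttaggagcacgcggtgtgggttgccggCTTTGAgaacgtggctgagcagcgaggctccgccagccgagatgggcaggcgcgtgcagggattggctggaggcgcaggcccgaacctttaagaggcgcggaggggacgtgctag
Slco1a4, chr6:141856221-141856470, minus strand: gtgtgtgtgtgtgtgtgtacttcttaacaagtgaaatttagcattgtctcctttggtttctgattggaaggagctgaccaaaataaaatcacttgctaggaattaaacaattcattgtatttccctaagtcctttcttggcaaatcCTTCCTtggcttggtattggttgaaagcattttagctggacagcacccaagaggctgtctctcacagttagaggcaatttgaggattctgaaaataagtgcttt
Flt1, chr5:147726012-147726261, minus strand: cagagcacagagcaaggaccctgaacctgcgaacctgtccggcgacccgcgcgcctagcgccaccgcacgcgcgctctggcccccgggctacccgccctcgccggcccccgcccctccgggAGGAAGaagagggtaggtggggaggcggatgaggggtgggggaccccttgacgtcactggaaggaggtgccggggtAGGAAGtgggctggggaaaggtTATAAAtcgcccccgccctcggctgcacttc
Tie1, chr4:118489850-118490099, minus strand: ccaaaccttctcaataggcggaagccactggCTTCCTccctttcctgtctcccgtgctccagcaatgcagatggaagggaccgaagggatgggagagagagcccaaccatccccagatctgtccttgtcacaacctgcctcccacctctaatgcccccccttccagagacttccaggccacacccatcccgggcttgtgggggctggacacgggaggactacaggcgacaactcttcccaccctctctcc

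Mfsd2a had 1 match to CTTTGA, which began 115 bases before the start. Slco1a4 had 1 match to AGGAAG on the opposite strand, 104 bases before the start. Flt1 had AGGAAG 129 and 53 bases before the start and TATAAA 31 bases before it. Tie1 had AGGAAG on the opposite strand 219 bases before the start. None of these matches overlapped another. Of receptors whose windows are not shown, Kdr had no match to any motif searched. Tek had none to AGGAAG and had ACAAAG 26 bases before the start.

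In all, 12 of the 32 genes overlap another annotated gene, 8 of them one on the same strand. Most of the partners had few reads, such as Gm43581 within Slc16a1 with 18 and 30 expected counts. The opposite-strand entry Gm20388 covers 26545 bases of Slc7a5 and had 0.03 expected counts in replicate 1 and 528 in replicate 2. Slc7a5 itself, with 1409 and 1608 expected counts and a posterior SD of 0, had a ratio of 0.988 (interval 0.919 to 1.06). The use of strand in counting is likewise not given in the sources used here. Eng and Nos3, which overlap Fpgs and Atg9b on the opposite strand, also had a posterior SD of 0 in both animals. Whether reads of opposite-strand partners entered the counts of the members was not tested.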

How the data were processed

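Total RNA libraries of the left cortex of 2 mice were used. For each library the authors deposited gene and transcript tables with expected counts, TPM and FPKM, made from transcriptome alignments on mm10 with GENCODE M21, per the file headers and deposited notes. The deposited transcript tables also give each form's percent of its gene, and the deposited gene tables a score, the posterior SD of each count. The second quantification is a deposited table of estimated counts and TPM made from the reads. The labels and headers name no program (not given in the sources used here). CAST reads were assigned against mm10, and allele bias was not analysed.

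Expected counts were rounded to whole numbers. Library totals, which leave out ribosomal RNA genes, tRNA and spike-ins, were 24688669 and 27440152. Ratios are log2 CPM with TMM scaling (edgeR 4.0.16) and a prior count of 2, over genes averaging 50 or more normalised counts. Intervals are exact (Clopper-Pearson) 95% intervals given the sum of both counts, and cover counting error only. The ratio and its interval were tested on simulated data. Alternatives were scaling by spike-ins or by size factors from DESeq2 1.42.0, other filters and the second quantification. The common coefficient of variation between the animals was 0.109 over 18284 genes. Of genes with the same symbol the more abundant was kept. All members are named. Of other endothelial and barrier lists the 3 highest and the lowest were named, and of every list any gene 2-fold apart, lists of other cell types being given by sums and medians, further genes being marked as chosen after their values were seen. Forms are named where the leader changed or the next held at least 20% in both animals. Members and lists were chosen with earlier results of these data known. Calculations ran in Python 3.11.15 (scipy 1.17.1, numpy 2.4.6, pandas 2.3.3, matplotlib 3.10.9) and R 4.3.3. A stretch of Slc2a1 sequence is not reported here.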

Additional observations from a re-analysis of the deposited data

How the results depend on the processing

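The median level of the 32 genes, 9.54 TPM, was 11.2 TPM by the second quantification, 19.1 TPM when TPM was rescaled to protein-coding genes, 6.15 by FPKM and 8.19 TPM without the 10 genes also expressed by other brain cells. It lay between 9.46 and 9.62 TPM when either animal was left out. By the second quantification, TPM was higher in replicate 2 for every member but Mfsd2a and Ocln. Bsg, for example, had 229 TPM there in replicate 1 and 329 TPM in replicate 2. The median log2 ratio of scaled counts by that quantification was 0.06. A gap between the animals in those TPM therefore need not be a gap in scaled counts. All 32 genes stayed above 1 TPM by the second quantification and above 2 TPM by the first. The median log2 ratio lay between -0.035 and 0.093 over 10 alternatives, and no member was 2-fold apart under any of 7 alternatives. By spike-in scaling, and likewise by the second quantification, 2 members were past 1.5-fold in place of 1, a size chosen after seeing the data. The median log2 ratio of all genes tested was 0.072 by spike-in scaling and 0.006 by TMM, a shift of less than 0.1. The direction of the ratio held for 29 members by the second quantification, 32 with DESeq2 size factors and 27 with spike-in scaling. The mean level moved by more than 1 SD by the second quantification for 15 members, and Cdh5 moved most in rank, by 7 places. The number of members led by 1 form with at least 50% in both animals was 20, and 19 by the second quantification. No paired analysis was possible because the labels give 1 group only. With 2 animals the SD is itself uncertain, and Erg, Emcn, Sox17 and Sox18 had the fewest counts and the widest intervals.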
